A study of Mus musculus with 4 samples.

Results

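The TRIM genes of mouse were compared between decitabine-treated and control BR5FVB1-Akt cells, a line that the labels describe as ovarian cancer. Members were all array rows with a single gene symbol of the form Trim plus a digit, and a gene with several rows was represented by the one whose mean over the 4 arrays was highest. This gave 64 of the 22180 genes tested, 1 of them named as a pseudogene, Trim30e-ps1. Each group had 2 samples, controls without decitabine and cells kept in 10 uM decitabine for 72 h. Each sample was measured on 1 Affymetrix Mouse Gene ST array. Decitabine is a cytidine analogue that is built into new DNA and traps DNA methyltransferases, so that methylation is lost as cells divide. The labels give the line by name only, with no genotype, clone or drug vehicle. Samples are labelled as biological replicates, with no word on whether they were separate cultures. The p-values therefore rest on the spread between arrays within each group, moderated by a variance prior common to all genes. They do not measure a known spread between separate cultures.

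TRIM proteins carry a tripartite motif at their N-terminus: a RING finger that recruits a ubiquitin-conjugating enzyme, 1 or more B-box zinc fingers and a coiled coil through which they pair. The C-terminus differs between members and sets what each one binds. Many act as ubiquitin E3 ligases, and some lack a RING finger, among them Trim14, Trim16, Trim29, Trim44 and Trim66. The family is best known for antiviral defence, in which several members are induced by interferon, but it also holds transcriptional co-repressors, RNA-binding proteins and muscle proteins.

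Fold changes rest on taking the deposited values to be on a log2 scale, as their range allows. A row's value also depends on its probes, so no level is set against that of another single gene. Row medians were 4.60, 4.60, 4.60 and 4.66 on the 4 arrays. Of 10 markers of ovarian surface or tubal epithelium, 4 were higher and 1 lower with an unadjusted p below 0.05, shares of 40% and 10% against 7.34% and 6.97% of all genes. Msln was at 0.86, Krt8 at 0.53, Krt18 at 0.33, Krt19 at 0.28 and Wt1 at −0.28 (log2 fold change), and the mean log2 value of the list was 6.81 and 6.75 in the controls and 7.03 and 6.94 with decitabine. In mean level over the 4 arrays 7 of the 10 were at or above the median of all genes, and Epcam, Pax8 and Muc16 were not. Of 11 leukocyte markers, 2 (18.2%) were higher, Cd68 (6.56 and 6.64 against 7.08 and 7.02) and Itgam (3.30 and 3.39 against 3.75 and 3.93), and 0 were lower. The mean log2 value of that list was 4.29 and 4.17 in the controls and 4.21 and 4.44 with decitabine, and Ptprc, Cd3e, Lyz2 and Adgre1 lay between 2.63 and 3.70 on all arrays. In mean level 4 of the 11, Cd68, Csf1r, Nkg7 and Fcer1g, were at or above the median of all genes. Another 6 lay below the 25th percentile. Of 6 endothelial markers, 2 (33.3%) were higher, Cdh5 and Kdr, and 0 lower, with list means of 4.25 and 4.17 against 4.35 and 4.44. The part of other cells in the TRIM values was not tested, and with bulk RNA fewer cells of a type and less RNA per cell cannot be told apart.

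No TRIM gene was called higher or lower with decitabine by the test used here. The members with the smallest p-values were Trim16 and Trim21, which were higher, and the pseudogene Trim30e-ps1, which was lower. No member passed limma with Benjamini-Hochberg adjustment over all genes at 0.05, in a comparison that called 0.131% of all genes higher and 0.0135% lower. The smallest adjusted p of a member was 0.142, for Trim16. A missing call does not show that a gene was unchanged. In the same fit Irf7, with a log2 fold change of 1.74, was not called either (adjusted p = 0.0564). With an unadjusted p below 0.05 there were 6 higher members (9.38%) and 2 lower ones (3.13%), against 7.34% and 6.97% of all genes. Both decitabine arrays lay above both control arrays for 18 members (28.1%) and below them for 13 (20.3%), against 23.4% and 22.5% of all genes. These shares were close to the background, so the family as a whole gave no result of its own. The median log2 fold change was 0.04 over the 64 members, and 0.0040 over all genes. It was positive in 34 members (53.1%) and negative in 30, against 50.7% positive among all genes.

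The size of change that the data left room for was small for most members. The 95% confidence interval lay within a 2-fold difference in either direction for 61 members (95.3%), as it did for 96% of all genes. It lay within 1.5-fold for 40 of the 64 members, a lower share than among all genes (15369 of 22180). The exceptions to the 2-fold bound were Trim30a, with an interval from −0.16 to 1.13, Trim30d, from −1.09 to 0.05, and Trim30e-ps1, from −1.18 to −0.19. These intervals come from a fit with 1 common prior for the variance and may be too narrow for dim rows. Of the 64 members, 14 lay below the 25th percentile of mean level over all genes and 28 at or above the median.

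**Figure D1:**
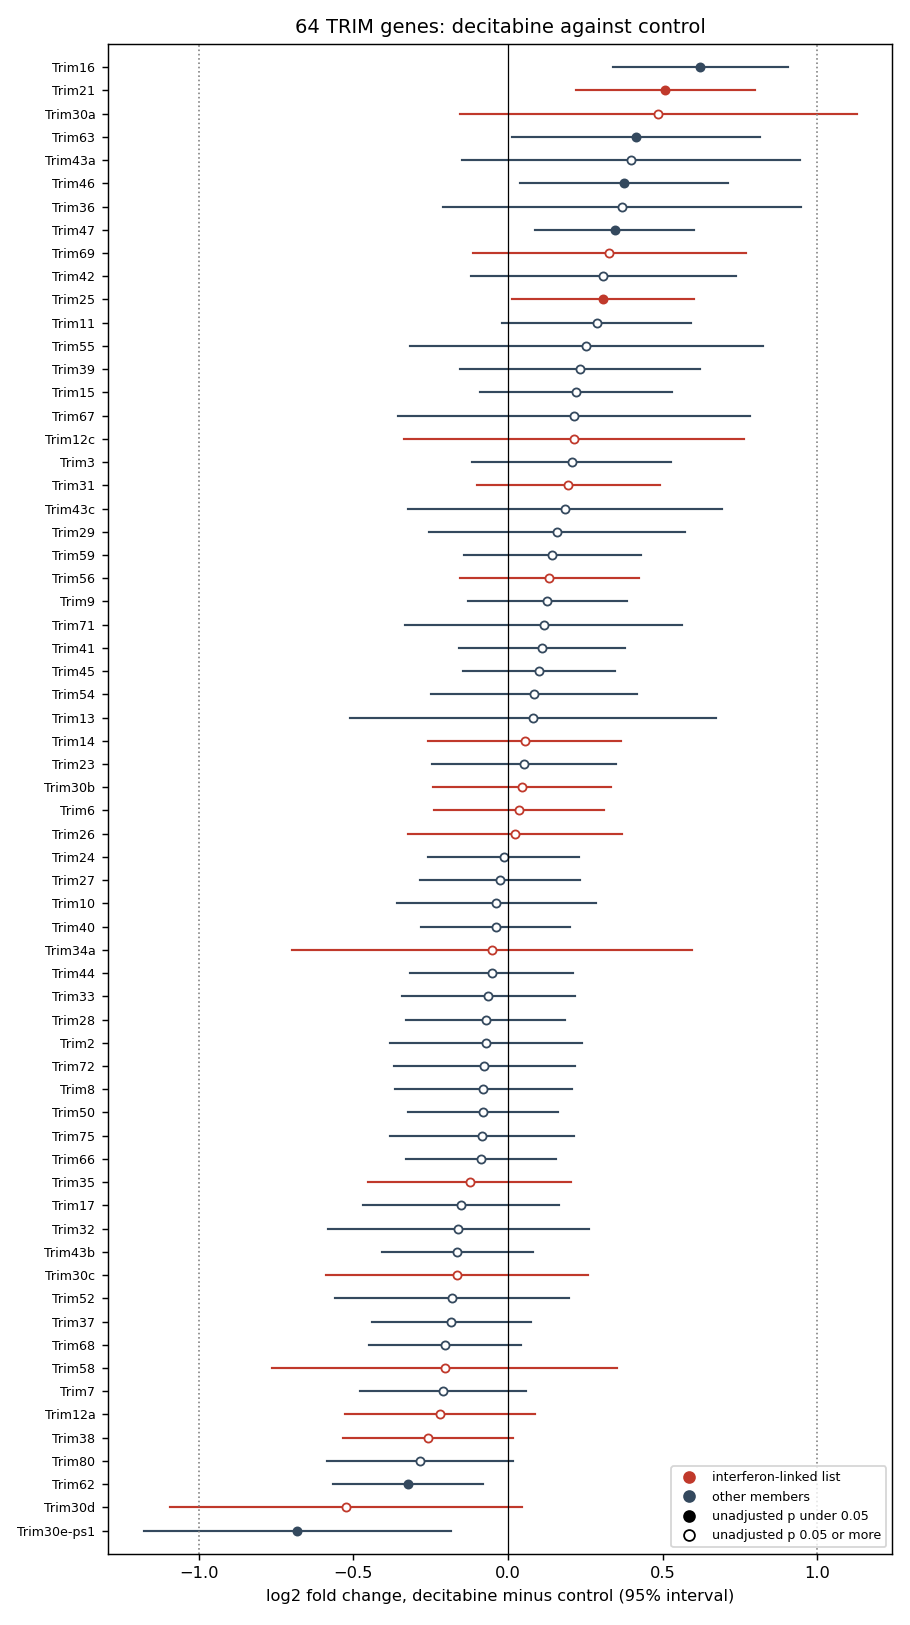
Log2 fold change (decitabine minus control) of the 64 TRIM genes, with the 95% interval of the fit as a line, red for the interferon-linked list and dark blue for the others, and filled points for an unadjusted p below 0.05. The points run from −0.68 to 0.62, and 61 intervals lie between the dotted lines at a 2-fold difference.

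The 2 members with the smallest p-values were both higher. Trim16 encodes a RING-less protein with ligase activity that takes part in the clearance of damaged membranes and in the antioxidant response. Its values were 4.68 and 4.55 on the control arrays, against 5.30 and 5.17 on the decitabine arrays. The groups did not overlap, and the log2 fold change was 0.62 ± 0.11 (SE, 2 arrays per group), a 1.54-fold difference, while a row that Trim16 shares with Fbxw10 was at 0.10. Trim21 encodes a cytosolic antibody receptor that binds the constant part of immunoglobulin on incoming virus particles and ubiquitinates them. Its values were 6.58 and 6.39 on the control arrays, against 7.01 and 6.99 on the decitabine arrays. The groups did not overlap, and the log2 fold change was 0.51 ± 0.11, a 1.42-fold difference. Their adjusted p was 0.142 and 0.186. With an intensity trend in limma's variance model both passed the test (adjusted p = 0.0389 and 0.0173), and no other member did, in a fit that called 3.68% of all genes higher and 3.6% lower.

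A further 4 members lay higher and 2 lower with an unadjusted p below 0.05, and none of these differences reached 1.5-fold in a gene with a protein product. Trim47, a PRYSPRY ligase, was at 6.35 and 6.39 on the control arrays and at 6.76 and 6.67 on the decitabine arrays (log2 fold change 0.34 ± 0.10, adjusted p = 0.247). Trim46, which organises parallel microtubules at the start of the axon in neurons, was at 5.78 and 6.07 against 6.28 and 6.31 (0.37 ± 0.13, adjusted p = 0.315). In Trim46 the gap between the groups, from 6.07 to 6.28, was smaller than the distance between its control arrays. Trim25, which ubiquitinates the RNA sensor RIG-I, was at 8.39 and 8.21 against 8.66 and 8.55 (0.31 ± 0.11, adjusted p = 0.333). Trim63, the muscle RING finger protein MuRF1 that marks myofibrillar proteins for breakdown, was at 4.79 and 4.41 against 5.08 and 4.96 (0.41 ± 0.16, adjusted p = 0.335). In Trim25 and Trim63, as in Trim46, the gap between the groups was smaller than the distance between the control arrays.

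Of the 2 that were lower, Trim62, also called DEAR1, a ligase studied as a regulator of epithelial polarity, had the smallest distances between replicates of the 8, at 5.97 and 5.96 on the control arrays and at 5.64 and 5.64 on the decitabine arrays. Its log2 fold change was −0.32 ± 0.09 with an adjusted p of 0.250. Among genes at or above the median level only, Trim62 passed as lower (adjusted p = 0.0462) and Trim21 and Trim47 as higher (adjusted p = 0.0254 and 0.0466), in a fit that called 5.55% of those genes lower and 5.73% higher. The pseudogene Trim30e-ps1 was at 2.54 and 2.02 on the control arrays and at 1.66 and 1.54 on the decitabine arrays (−0.68 ± 0.19, adjusted p = 0.243). Here too the gap between the groups, from 2.02 to 1.66, was smaller than the distance between the control arrays. All 4 values of Trim30e-ps1 were below the 25th percentile of all rows, and no background level could be set for this dim row.

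**Figure D2:**
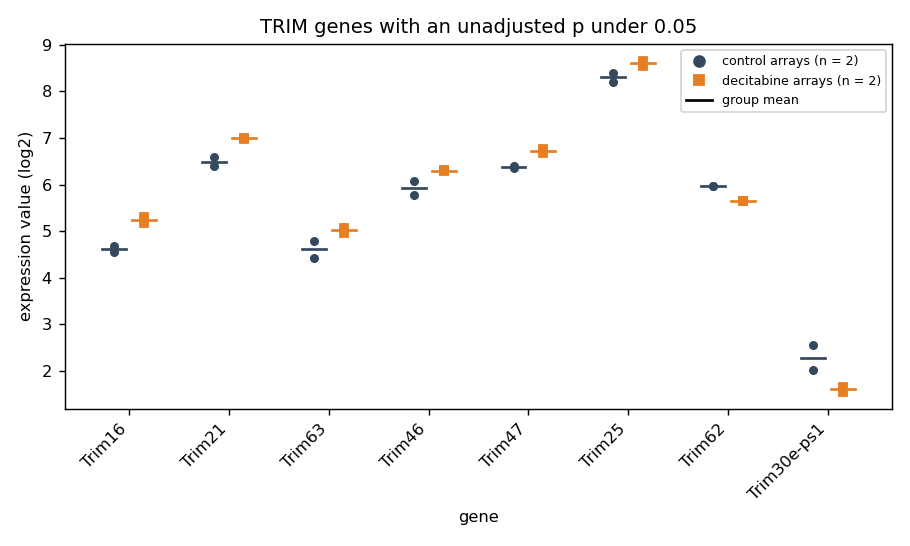
Expression value (log2) on each of the 4 arrays for the 8 TRIM genes with an unadjusted p below 0.05, circles for control and squares for decitabine arrays, bars for group means. In each gene the 2 groups are apart, by the least in Trim25 and Trim63.

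TRIM genes that interferon is known to induce in some cells, or their mouse copies, made up a list of 20, of which 18 were measured as members. None passed the test. Trim21 and Trim25 were higher with an unadjusted p below 0.05, 2 of 18 (11.1%, against 7.34% of all genes), and 0 were lower (against 6.97%). The median log2 fold change of the 18 was 0.04, with 11 positive and 7 negative. Both decitabine arrays lay above the controls in 6 (33.3%) and below them in 3 (16.7%), against 23.4% and 22.5% of all genes. Without Trim21 and Trim25 the other 16 had a median of 0.03 and ran from −0.52 to 0.49. On the same arrays 3 of 17 measured genes of interferon signalling and response passed. These were Ifit1, Usp18 and Rtp4, which rose by 1.98, 2.19 and 2.12 on the log2 scale (limma, adjusted p = 0.0261, 0.0495 and 0.0442). With an intensity trend their adjusted p was 6.4e-06, 2.5e-05 and 1.7e-05, and 9 of the 17 genes passed. Among genes at or above the median level their adjusted p was 0.00072, 0.0026 and 0.0020. Under quantile normalization Usp18 and Rtp4 no longer passed (adjusted p = 0.0588 and 0.0506), nor did they with robust variances (0.0591 and 0.0519). All 3 were lost with all rows tested (0.282, 0.330 and 0.330), with the replicate number as a block (0.106, 0.117 and 0.117) and without any 1 array, where the adjusted p ran from 0.132 to 0.571 with log2 fold changes from 1.91 to 2.44.

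Among the brighter members of this list, Trim56, which binds viral RNA, was at 7.16 and 7.09 on the control arrays and at 7.35 and 7.17 on the decitabine arrays. Trim26, a regulator of interferon induction, was at 7.07 and 6.96 against 6.90 and 7.18. Trim35 was at 6.996 and 6.988 against 6.73 and 7.006. The decitabine arrays of Trim26 and Trim35 lay on either side of the control arrays, and their log2 fold changes were 0.02 ± 0.14 and −0.12 ± 0.13. Trim14, a RING-less protein that binds the adaptor MAVS, was at 5.10 and 4.93 against 5.16 and 4.98, and Trim6 at 5.27 and 5.34 against 5.42 and 5.27. Neither separated the groups.

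The remaining members of the list were dim or uneven between replicates. Trim58, an erythroid ligase, was at 4.51 and 4.73 on the control arrays and at 4.13 and 4.71 on the decitabine arrays. Trim31, a ligase that acts on MAVS, was at 3.96 and 3.82 against 4.01 and 4.17, and Trim69 at 3.13 and 3.50 against 3.78 and 3.51. The groups did not overlap in Trim31 and Trim69, but by margins under the distance between replicates. Trim38, a regulator of innate signalling, was the other way, at 3.11 and 3.27 against 2.92 and 2.94 (−0.26 ± 0.11).

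**Figure D3:**
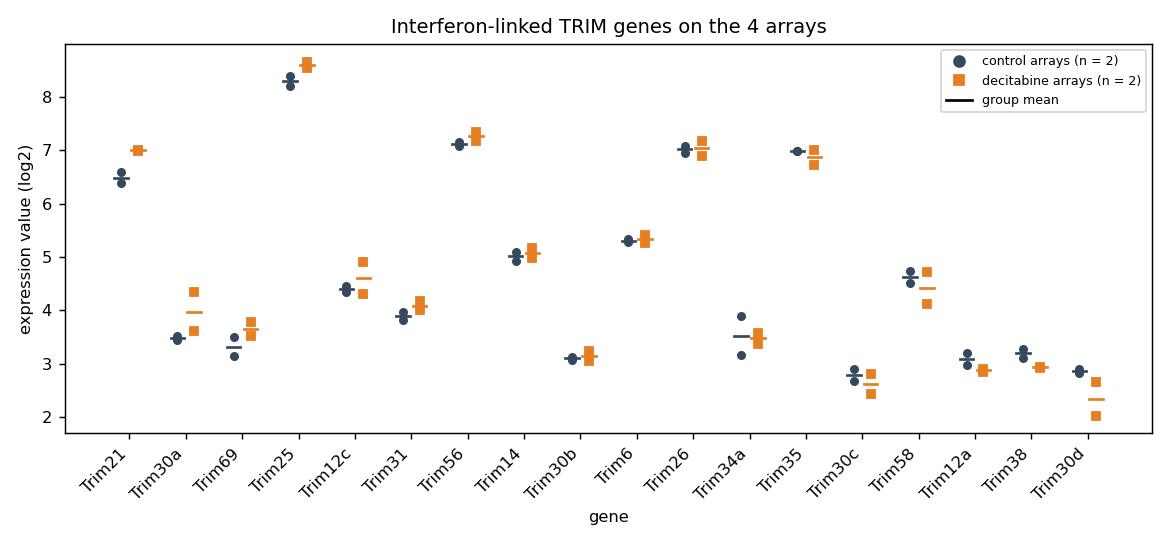
Expression value (log2) on each of the 4 arrays for the 18 measured members of the interferon-linked list, in order of log2 fold change, circles for control and squares for decitabine arrays, bars for group means. Trim21 stands apart at the left, while Trim30a, Trim12c, Trim58 and Trim30d have decitabine arrays that lie apart from each other.

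Promoter windows from 250 bases before to 50 bases after the start of transcription, taken from RefSeq on build GRCm38.p6, were searched on both strands for the core of the interferon-stimulated response element, which is GAAA, any 2 bases and GAAA again, or TTTC, any 2 bases and TTTC on the other strand. Windows were matched for 49 of the 64 members, and Trim16 and Trim30e-ps1 were not among them. Of the 49, 8 (16.3%) held the core in at least 1 window, against 3.99% of all 27025 genes with a window. Per window the shares were 14.3% of 63 member windows and 3.44% of 32851. All but Trim2 of the 8 are in the interferon-linked list. Stretches of 30 bases around the match are shown for all 8 because they carry the letters found, on the strand of the gene, with the core in capitals (for Trim30a, the window farther upstream of 2 that hold it).

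Trim21: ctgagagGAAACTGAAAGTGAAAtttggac
Trim26: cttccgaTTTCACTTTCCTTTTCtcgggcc
Trim34a: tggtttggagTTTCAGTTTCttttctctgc
Trim12a: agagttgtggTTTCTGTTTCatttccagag
Trim12c: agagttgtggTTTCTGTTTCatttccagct
Trim30a: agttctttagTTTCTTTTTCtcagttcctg
Trim30d: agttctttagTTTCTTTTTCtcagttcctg
Trim2: tcagctttggTTTCCTTTTCtctaagacag

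The stretch of Trim21 lies at chr7:102565447-102565476 on the minus strand and holds 2 overlapping cores that begin at base 14 of the transcript. That of Trim26, at chr17:36836979-36837008 on the plus strand, also holds 2 overlapping cores, which begin at position −160 from the start. Trim34a (chr7:104244457-104244486, plus strand), Trim12a (chr7:104315466-104315495, minus strand), Trim12c (chr7:104353359-104353388, minus strand), Trim30a (chr7:104465210-104465239, minus strand), Trim30d (chr7:104507871-104507900, minus strand) and Trim2 (chr3:84212791-84212820, minus strand) hold 1 each. The stretches of Trim30a and Trim30d were identical over all 30 bases, and those of Trim12a and Trim12c over 28 of 30. Overlapping cores share a GAAA and were counted separately, and a match is a description of letters, not a site shown to be bound.

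The 8 genes with the core had differences on both sides of 0. Of them, 1 was past an unadjusted p of 0.05, Trim21, and their median log2 fold change was −0.01, with 4 positive. Of the 41 members with a window but no core, 5 were past it, and of all genes 14.3% were. Trim21 and Trim26, the 2 members with overlapping cores, had log2 fold changes of 0.51 ± 0.11 and 0.02 ± 0.14. In CpG, the dinucleotide at which mammalian DNA is mainly methylated, the windows of members ran from 0 to 46 with a median of 9, against a median of 7 over all windows. Trim21 had 3 CpG in its window, Trim25 had 18, and Trim47 and Trim62, which lay in opposite directions, had 29 each.

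Many of the interferon-linked genes lie side by side on chromosome 7, which carried 15 of the 64 members. From Trim6 through Trim34a and the Trim12 and Trim30 copies, 9 neighbours were measured, and none passed the test. Their median log2 fold change was −0.05, with 4 positive and 5 negative, and 7 of the 9 lay below the 25th percentile of level. Trim30a, which restrains NF-kB signalling, was at 3.45 and 3.53 on the control arrays and at 4.34 and 3.61 on the decitabine arrays. Its log2 fold change of 0.49 ± 0.25 became 0.85 when decitabine replicate 2 was left out and 0.12 when replicate 1 was, so decitabine replicate 1 set its size. Its copy Trim30d lay the other way, at 2.83 and 2.90 against 2.66 and 2.03 (−0.52 ± 0.22), or −0.84 with decitabine replicate 1 left out and −0.20 with replicate 2 left out.

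Of the other neighbours, the pseudogene Trim30e-ps1, given above, had the largest difference of the 9 (−0.68 ± 0.19). The rest gave smaller values than Trim30a and Trim30d. Trim30b was at 3.12 and 3.07 against 3.23 and 3.05, and Trim30c at 2.90 and 2.67 against 2.80 and 2.44. Trim34a was at 3.17 and 3.88 against 3.58 and 3.37, and its control arrays lay farther apart than any of its decitabine values from either of them. The copies Trim12a and Trim12c, related to the retroviral restriction factor TRIM5, were at 2.98 and 3.21 against 2.84 and 2.90, and at 4.34 and 4.46 against 4.91 and 4.31. Trim12c was uneven in the same way as Trim30a, with decitabine replicate 1 above the other 3 arrays. Because these genes are close copies, their probes may measure more than 1 of them, and a row is reported under the symbol that the platform gives.

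The co-repressor class, with a PHD finger and a bromodomain, gave no called difference and had narrow intervals. Trim28, also called KAP1, is recruited by KRAB zinc finger proteins and brings histone methyltransferase activity to retroelements. It was at 9.96 and 10.03 on the control arrays and at 9.97 and 9.88 on the decitabine arrays, a log2 fold change of −0.07 ± 0.10 with a 95% interval from −0.33 to 0.19. Trim24, a co-regulator of nuclear receptors, was at 8.36 and 8.41 against 8.37 and 8.37, with an interval from −0.26 to 0.23. Trim33, which acts on SMAD signalling, was at 8.04 and 8.21 against 8.06 and 8.06, with an interval from −0.34 to 0.22. Trim66, expressed mainly in testis, was at 3.99 and 3.99 against 3.89 and 3.91. All 4 log2 fold changes were negative, with a median of −0.07. The 95% intervals left out a 1.5-fold change in either direction for all 4 members of this class. The same held for the 4 members with NHL repeats, the 7 with no recognised C-terminal domain and 15369 of the 22180 genes. Narrow intervals were therefore not particular to this class.

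In the other classes no member passed either. The NHL class, whose members bind RNA or act in neurons and muscle, was at −0.07 for Trim2, 0.21 for Trim3, −0.16 for Trim32 and 0.12 for Trim71, the stem cell gene also called Lin41. In the class with a COS box, which binds microtubules, Trim54, Trim55 and Trim63 of muscle and Trim42 had log2 fold changes of 0.09, 0.25, 0.41 and 0.31. The second row of Trim54 was at 0.36, and that of Trim42 went the other way, at −0.06. In the class that adds fibronectin type III and PRYSPRY domains, Trim9, Trim36, Trim46 and Trim67 were at 0.13, 0.37, 0.37 and 0.21. In the rows used, these 8 members of the COS box classes were all positive, with class medians of 0.28 and 0.29. Of them, 4 had both decitabine arrays above the controls. Among all genes 50.7% were positive and 23.4% had arrays that were separately higher. In mean level, 7 of these 8 were under the median gene. Of 11 striated muscle markers 1 (9.09%) was higher and 0 lower with an unadjusted p below 0.05, against 7.34% and 6.97% of all genes. The list's mean log2 value was 4.96 and 4.95 in the controls and 4.97 and 5.07 with decitabine.

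Members with a MATH, ARF, filamin or transmembrane part, Trim13, Trim23, Trim37, Trim45 and Trim59, ran from −0.18 in Trim37, a peroxisomal and centrosomal ligase, to 0.14 in Trim59. The 7 members with no recognised C-terminal domain ran from −0.18 in Trim52 to 0.20 in Trim31. Among them Trim8, a regulator of cytokine signalling, was at 9.35 and 9.28 on the control arrays and at 9.32 and 9.14 on the decitabine arrays. Trim44, a RING-less protein, was at 9.02 and 9.09 against 9.05 and 8.95. Both had intervals within a 1.5-fold difference. The largest class, with a PRYSPRY domain, had 34 measured members, 17 positive and 17 negative, with a median of −0.0019. In this class Trim16, Trim21, Trim25 and Trim47 were higher and Trim62 lower with an unadjusted p below 0.05. These were 11.8% and 2.94% of the class, against 7.34% and 6.97% of all genes, and 14.7% in both directions against 14.3%. The 14 PRYSPRY members not named otherwise ran from −0.21 in Trim7 to 0.40 in Trim43a, and the testis gene Trim75 was at 2.65 and 2.83 against 2.60 and 2.72. Trim80, in no class, was at 4.48 and 4.27 against 4.12 and 4.07 (−0.29 ± 0.12).

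Genes that share the TRIM architecture under other names, and the partners of TRIM ligases, were compared in the same fit, and lists of both kinds were chosen with earlier results known. Of 12 genes of the first kind, none passed, and Fsd2 alone was higher with an unadjusted p below 0.05 (0.36 ± 0.13). That was 8.33% of the list, against 7.34% of all genes, and 0 were lower, against 6.97%. Pml, the scaffold of nuclear bodies and an interferon-induced member of the family in all but symbol, was at 8.75 and 8.85 on the control arrays and at 9.02 and 9.06 on the decitabine arrays. Its log2 fold change was 0.24 ± 0.10 (adjusted p = 0.366). Of 12 ubiquitin-conjugating enzymes that work with TRIM ligases, none passed, with Ube2e2 at −0.31 ± 0.11 and Ube2l6, which also conjugates ISG15, at 0.32 ± 0.13. Of 14 partners of Trim28 in repression, none passed, with Zfp57, a KRAB zinc finger protein of imprinted loci, at −0.28 ± 0.10 and Uhrf1, which recruits Dnmt1 to replicating DNA, at 0.28 ± 0.11.

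In the RNA and DNA sensing route on which Trim25, Trim31 and Trim14 act, 6 of 14 measured genes were higher and 1 lower with an unadjusted p below 0.05, against 7.34% and 6.97% of all genes, and none passed over all genes. Ddx58, which encodes RIG-I, the substrate of Trim25, was at 6.74 and 6.57 on the control arrays and at 7.69 and 7.95 on the decitabine arrays. Its log2 fold change was 1.17 ± 0.14 (adjusted p = 0.0762), against 0.31 ± 0.11 for Trim25. The transcription factor Irf7 was at 6.31 and 6.10 against 7.77 and 8.12 (1.74 ± 0.16, adjusted p = 0.0564). Mavs, the adaptor named above with Trim14 and Trim31, was the lower gene. It was at 9.68 and 9.45 against 9.27 and 9.23 (−0.32 ± 0.12, adjusted p = 0.333). In the interferon axis, of 17 genes measured, 3 passed as higher and 0 as lower over all genes. The 3 were Ifit1, Usp18 and Rtp4, whose calls were lost under some of the settings given with them above and kept under others. Oasl2 was at 2.01 ± 0.19 (adjusted p = 0.0564). Of the 17, 12 were positive and 5 negative, with a median of 0.46, and Ifit3 was at −0.04 and Mx1 at −0.21. The difference in response between these genes and the TRIM members was not tested.

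**Figure D4:**
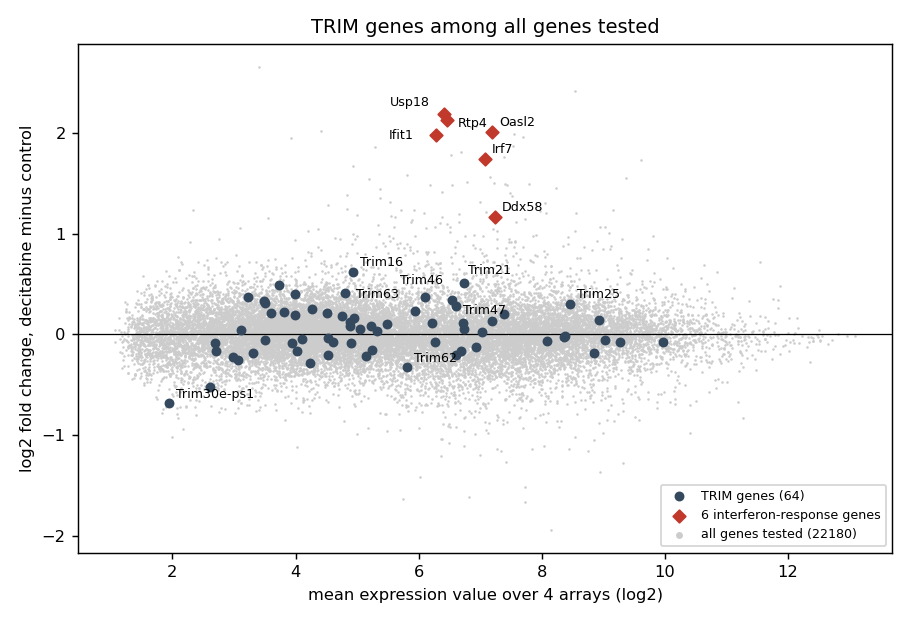
Log2 fold change (decitabine minus control) against the mean expression value over the 4 arrays (log2) for the 22180 genes tested in grey, the 64 TRIM genes in dark blue and 6 interferon-response genes as red diamonds. The TRIM genes stay between −0.68 and 0.62, and the 6 labelled interferon-response genes, named for their small p-values, lie from 1.17 to 2.19. Other genes of their lists are not marked, and some of those did not rise.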

How the data were processed

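The deposited table holds 1 value per array row, read here as log2 from its range; it carries no normalization, background or build, and how the authors made it is not given in the sources used here. Of 41345 rows, 23521 carried 1 symbol in the platform annotation. All 64 members matched a RefSeq entry of GRCm38.p6 by Entrez identifier. The 22180 genes were fitted together with limma 3.58.1 in R 4.3.3 (lmFit, eBayes without a trend, group the only term, two-sided), with Benjamini-Hochberg adjustment over all of them. Figures used Python 3.11.15 and matplotlib 3.10.9. The fit was tested on simulated data. The small number of arrays limits the precision.

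Members and lists were chosen with earlier results of these data known. Named were members with an unadjusted p under 0.05 and separate arrays, the interferon-linked list, Trim24, Trim28, Trim33, the 3 brightest and 3 dimmest members, and, of each related list, genes that passed, the next 2 by p, Pml and Ddx58; small classes are given whole. Rows with several symbols were left out of the tests, and protein sequences were not analysed here. Alternatives were other normalization, centring, level filters, variance models, row choices, thresholds, the replicate block and leaving out each array.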

Additional observations from a re-analysis of the deposited data

Results flagged for a closer look

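Of 7 rows that carry a TRIM symbol together with another symbol, and which the comparison did not use, the row shared by Trim34b and Trim34a was higher with decitabine. It was at 4.48 and 4.14 on the control arrays and at 5.11 and 4.69 on the decitabine arrays. Its log2 fold change was 0.60 ± 0.21 (adjusted p = 0.530 in limma over all rows). This row drew attention because its decitabine arrays lay above the control arrays at an unadjusted p under 0.05. Of all rows, 4.60% were higher at an unadjusted p under 0.05, whether or not their arrays were separate. The row of Trim34a alone was at −0.05. Among the second rows of the 5 members with more than 1 row, that of Trim54 was at 4.66 and 4.49 against 4.93 and 4.93, a log2 fold change of 0.36 ± 0.12, while the row used for Trim54 was at 0.09 ± 0.13, so its rows gave different values; the second row was past an unadjusted p of 0.05 and the other was not. Of the other shared rows, that of Fbxw10 and Trim16 was at 0.10, that of Trim65 and Trim47 at 0.17, that of Trim80 and Mir3968 at −0.31, those of Trim12c and Trim5 at 0.24 and −0.03, and that of Trim61 and Trim60 at 0.11.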

How the results depend on the processing

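The count of called members was 0 with each setting but these: 2 with an intensity trend and 3 among genes at or above the median level (1615 and 1251 genes called in all, against 32). Without any 1 array it was 0. With the replicate block it was 0 as well, the smallest adjusted p of a member was 0.247, no gene of all those tested passed, and 9 members instead of 8 were past an unadjusted p of 0.05; same-numbered arrays did not deviate together (r = −0.018). The count of 8 was 5 with all rows tested, 2 at an unadjusted p under 0.01, and 5 to 9 when an array was left out. Only Trim16 and Trim21 were past it in each leave-one-out fit. The count of separate arrays, 31, was 13 among the 28 members at or above the median level and 42 to 53 without 1 array, since a lone array separates more easily, and the lone array was taken to vary like the other group. The median of 0.0401 was 0.0333 with quantile normalization, 0.0153 with centred arrays, 0.0532 and 0.0290 with the level filters, and 0.0006 to 0.0257 without 1 array. Signs turned for Trim26 with centred arrays (−0.0024) and for Trim34a with the mean of its rows (0.0126). Leaving out 1 array turned the sign of 13 of 30 named members: Trim12c ran from −0.0885 to 0.5137, Trim14 from −0.0382 to 0.1464, Trim26 from −0.1199 to 0.1648, Trim30b from −0.0490 to 0.1383, Trim30c from −0.3467 to 0.0185, Trim34a from −0.4080 to 0.3062, Trim35 from −0.2616 to 0.0137, Trim58 from −0.4973 to 0.0872, Trim6 from −0.0379 to 0.1089, Trim24 from −0.0371 to 0.0102, Trim33 from −0.1514 to 0.0236, Trim8 from −0.1704 to 0.0114 and Trim75 from −0.1735 to 0.0057. The cause of these differences was not tested. No background level was available, so what depth of signal limits in dim rows is not known.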
